A study of Arabidopsis thaliana with 3 samples.

Results

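The genes described here mostly encode intracellular immune receptors of Arabidopsis thaliana and proteins that share their TIR domain. They are the genes of both deposited tables whose description names TIR-NBS, CC-NBS, NBS-LRR, NB-ARC, a TIR domain, Toll-Interleukin or disease resistance protein. The rule also took in RLP52, a receptor-like protein, and RLP18, a transcribed pseudogene of one, and both count among the receptor genes below. The rule found 28 genes among the 2666 distinct genes listed, 26 of them in the crwn1 crwn2 table and 5 in the pwo1 table, with 3 in both. Whole seedlings of 14 days were compared in 3 genotypes, namely the crwn1 crwn2 double mutant, the pwo1 mutant and the wild type Col-0. CRWN1 and CRWN2 encode long coiled-coil proteins that line the inner nuclear envelope of plants, and PWO1 encodes a chromatin reader with a PWWP domain that interacts with Polycomb proteins. All seeds were stratified for 2 days and sown on MS plates in long days, and the labels give no allele name for either mutant. The series' design text states 3 biological replicates per genotype. The values are the authors' own fold changes and p-values of each mutant over Col-0, so no value per library and no spread between replicates accompanies them, and RNA from a changed share of cells cannot be told apart from a changed level per cell. The labelled tissue could not be checked against its markers, since the tables hold differences and no levels. For crwn1 crwn2, the authors' deposited table gave the mutated genes log2 fold changes of -3.03 for CRWN1 and -2.42 for CRWN2 by edgeR, and of -3.09 for CRWN1 and -1.57 for CRWN2 by Cuffdiff. PWO1 was not listed for pwo1, and the header of that table names Col and pwo1 without saying which is the numerator. Its direction was therefore taken to be that of the crwn1 crwn2 table, whose header has the same form.

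Plants detect pathogen effectors inside the cell with nucleotide-binding leucine-rich repeat receptors. Their central NB-ARC domain binds nucleotide and acts as a switch, and their N-terminus sorts them into a TIR class, which resembles the Toll and interleukin-1 receptors of animals, and a coiled-coil (CC) class. TIR domains cleave NAD+ and signal through EDS1 with PAD4 or SAG101 to helper receptors of the ADR1 and NRG1 families, while several CC receptors signal through NDR1. Many of the genes lie in tandem arrays. High receptor dose is known to trigger autoimmunity in Arabidopsis.

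In crwn1 crwn2, 25 of the 26 listed receptor genes were higher than in Col-0 and 1 was lower. Of all 1935 genes listed in that table, 56.5% were higher and 43.5% were lower. The median log2 fold change of the 26 genes was 1.12 in the authors' deposited table, against 0.53 over all listed genes. Among the genes that were higher, the medians were 1.12 for the receptor genes and 1.01 for all. A change of at least 2-fold was listed for 16 of the 26 genes, against 40.4% of all listed genes. That 40.4% pools both directions, and the lower genes had a smaller median change, -0.76. Of the 25 higher receptor genes, 15 reached 2-fold. Among all higher protein-coding genes, 451 of 856 under 2000 coding bases and 92 of 224 longer ones did. An upper bound on the Benjamini-Hochberg adjusted p, computed from the edgeR p-values, was under 0.05 for 25 of the 26 genes and for 83.0% of all listed genes. The listed genes were selected by their p-values, so no test of the receptors as a group was made.

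**Figure D1:**
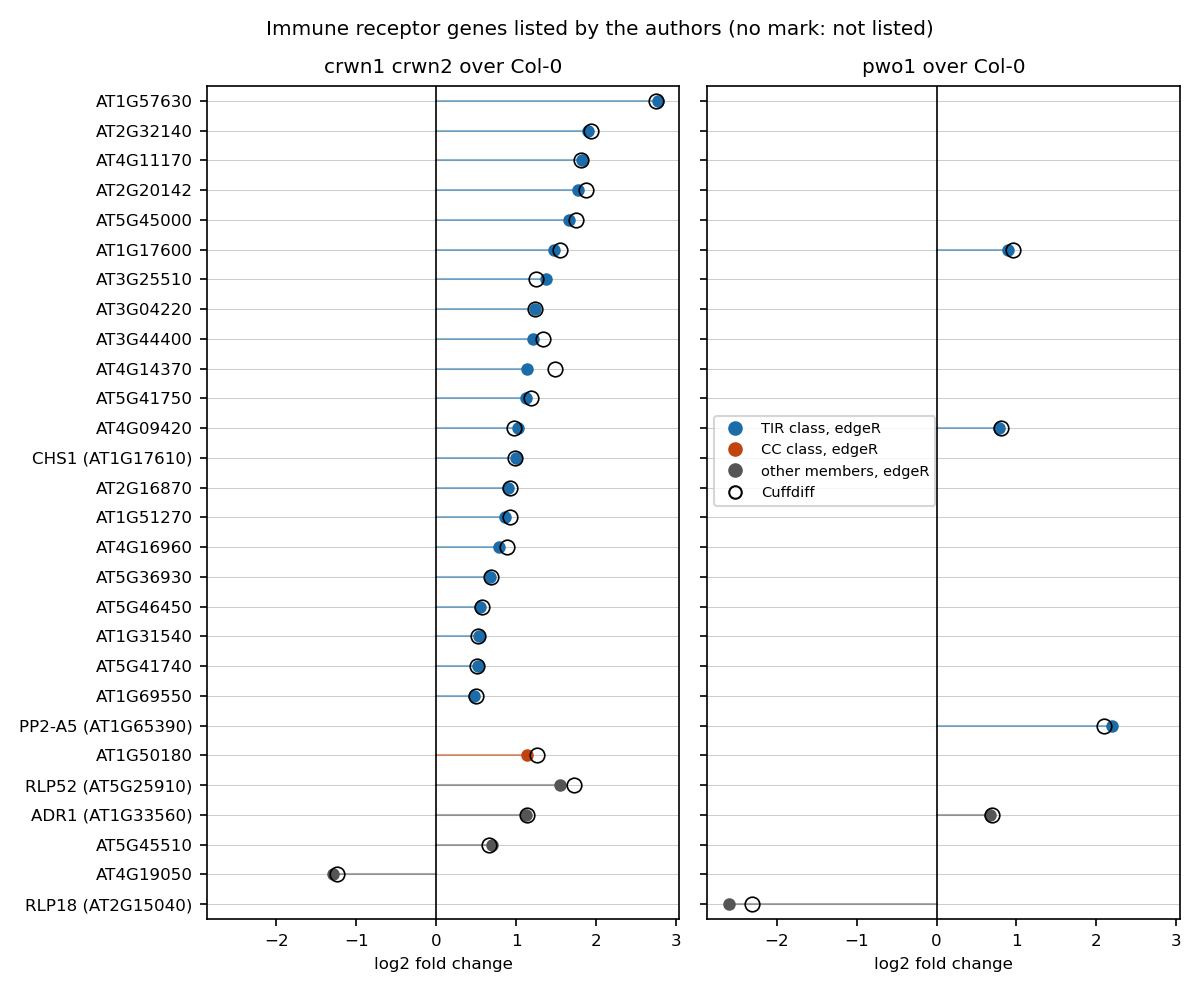
Log2 fold change (horizontal axis) of the 28 genes in crwn1 crwn2 (left) and pwo1 (right) over Col-0. Filled points are edgeR values coloured by class and open circles are Cuffdiff values from the authors' deposited tables, and a row with no mark was not listed in that table. In crwn1 crwn2 25 genes lie right of 0 and AT4G19050 lies left of it, while the pwo1 panel holds 5 genes.

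By their descriptions, 22 of the 28 genes belonged to the TIR class, 1 to the CC class and 5 to neither. All 21 TIR genes that the rule found listed for crwn1 crwn2 were higher, from 0.47 to 2.77, with a median of 1.12 in the authors' deposited table. The genes fell into 3 kinds by the protein domains named in their descriptions, a split that was not among the planned comparisons. TIR with NB-ARC was named for 16 genes listed for crwn1 crwn2, TIR without NB-ARC for 5, and no TIR domain for 5.

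The genes with a TIR domain and no NB-ARC domain named included 4 of the 5 largest rises among the receptor genes in crwn1 crwn2. AT1G57630, which encodes a short protein of the TIR domain family, stood at 2.77 on the log2 scale by edgeR and 2.75 by Cuffdiff in the authors' deposited table (edgeR p = 3.21e-13). It was the 59th highest of the 1935 genes listed. AT2G32140, described as a transmembrane receptor with a TIR domain, was at 1.90 in the authors' deposited table (edgeR p = 2.27e-07). AT2G20142, also of the TIR domain family, was at 1.77 in the authors' deposited table (edgeR p = 1.57e-11). AT5G45000 is named a TIR-NBS-LRR protein, but its description gives no domain beyond TIR and its coding sequence is 1260 bases long, and it was at 1.66 in the authors' deposited table (edgeR p = 4.70e-06). AT1G51270, which joins a TIR domain to a major sperm protein domain, was at 0.86 in the authors' deposited table. The 5 genes had a median of 1.77, against 1.01 for the 16 genes with both domains. Their ranges overlapped, from 0.86 to 2.77 for TIR without NB-ARC and from 0.47 to 1.83 for TIR with NB-ARC.

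A split by length mostly regrouped the same genes. The 5 listed TIR genes without NB-ARC are all under 2000 bases, so the length split is not a separate observation. The 7 TIR genes with a coding length under 2000 bases had a median log2 fold change of 1.66 in crwn1 crwn2, and the 14 longer ones had 1.01. The other short TIR genes, CHS1 and AT4G09420, were at 0.996 and 1.02. Over all higher protein-coding genes of the authors' deposited table, the medians were 1.04 for 856 genes under 2000 bases and 0.84 for 224 longer genes. Shorter genes of the whole table thus also had the larger median, and the part of length in the difference among the TIR genes was not tested.

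**Figure D2:**
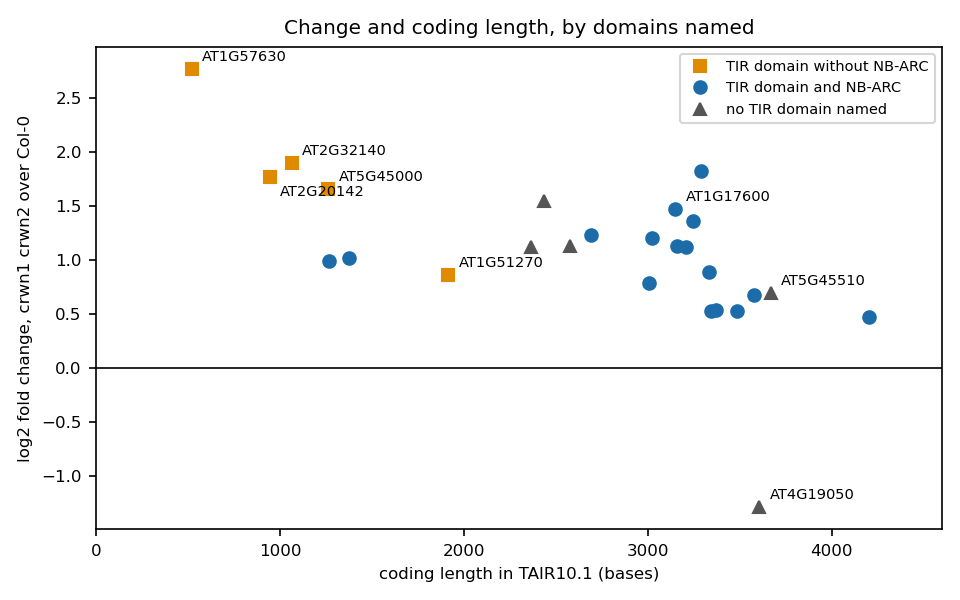
Log2 fold change in crwn1 crwn2 over Col-0 (vertical axis, authors' edgeR values) against coding length in bases in the TAIR10.1 annotation (horizontal axis) for the 26 listed genes. Squares are genes with a TIR domain and no NB-ARC domain named, circles have both and triangles have no TIR domain named; 4 of the 5 squares lie at 1.66 or above, and AT4G19050 is the point below 0.

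Among the full-length TIR receptors of crwn1 crwn2, AT4G11170 had the largest rise, at 1.83 in the authors' deposited table by edgeR (p = 6.55e-06). AT1G17600 was at 1.47 in the authors' deposited table (edgeR p = 1.01e-08) and AT3G25510 at 1.37 (edgeR p = 3.29e-07). AT3G04220 and AT3G44400 followed with 1.24 and 1.21 in the authors' deposited table. The gene with the largest disagreement between the authors' tools was AT4G14370, at 1.14 by edgeR and 1.48 by Cuffdiff in the authors' deposited table. The lower end held AT1G69550, AT5G41740, AT1G31540 and AT5G46450, at 0.47, 0.53, 0.53 and 0.54 in the authors' deposited table. AT5G46450 had the largest edgeR p-value of the group, 0.00435, and an adjusted upper bound of 0.0898. The short receptors with TIR and NB-ARC domains were CHS1, known for its chilling-sensitive mutants, at 0.996 in the authors' deposited table (edgeR p = 0.00107), and AT4G09420, at 1.02 (edgeR p = 2.41e-04). Their rises differed little from the median of the longer receptors.

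Receptors without a TIR domain were fewer and went in both directions in crwn1 crwn2. ADR1, a helper receptor with an RPW8-like N-terminus, was at 1.12 in the authors' deposited table (edgeR p = 2.55e-08). AT1G50180, an NB-ARC protein, was at 1.13 in the authors' deposited table (edgeR p = 1.49e-05). It is the 1 gene of the CC class, through the CC-NBS-LRR protein that its description names as its best match. AT5G45510 matched the rule through a domain of disease resistance proteins and was at 0.69 in the authors' deposited table (edgeR p = 1.70e-05). AT4G19050, an NB-ARC protein, was the gene that fell, with -1.29 in the authors' deposited table (edgeR p = 0.00175, Cuffdiff -1.25). RLP52, at 1.54 in the authors' deposited table (edgeR p = 9.35e-06), is a cell-surface receptor-like protein and not an NB-ARC receptor. It matched the rule by the words disease resistance protein.

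**Figure D3:**
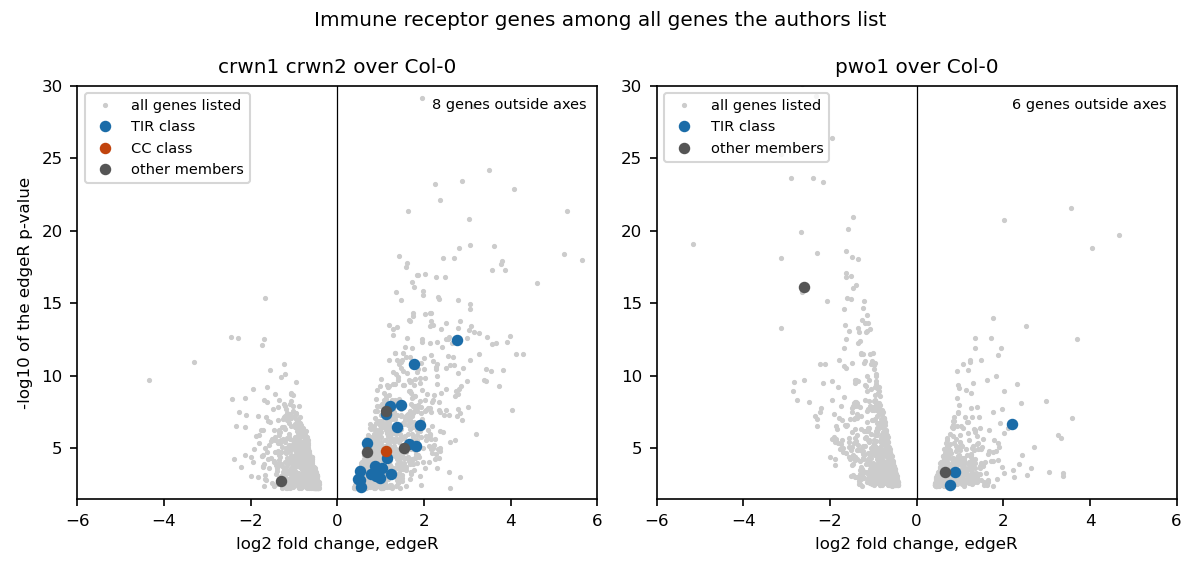
Log2 fold change by edgeR (horizontal axis) and -log10 of the edgeR p-value (vertical axis) of every gene listed for crwn1 crwn2 (left) and pwo1 (right) over Col-0, from the authors' deposited tables, with the receptor genes coloured by class. In crwn1 crwn2 25 receptor genes sit in the right arm and 1 in the left; in pwo1 4 sit in the right arm and 1 in the left.

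To set the listed genes against the family, the same rule was applied to the text of the TAIR10.1 annotation, where it matched 189 nuclear genes, among them 23 of the 28. For crwn1 crwn2, 25 of the 189 genes (13.2%) were listed, 23 higher and 2 lower. Of all 37899 annotated nuclear genes, 5.10% were listed, 2.88% as higher and 2.22% as lower, and of the 27444 protein-coding genes 6.94% were listed. By the same annotation 20 of 132 TIR genes (15.2%), 1 of 26 CC-NBS genes (3.85%) and 4 of 31 genes whose text names neither (12.9%) were listed. The listed CC-NBS gene was ADR1, while RPM1, a CC receptor, falls among the 31, so these shares depend on the annotation's wording. The classes were not compared by a test. The genes the authors tested are not given, and genes not listed are not shown to be unchanged.

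The annotation brought in 2 listed genes that the descriptions had missed, named here after their values were seen. RPM1, a CC receptor for Pseudomonas effectors that guards RIN4, was at 0.61 in the authors' deposited table for crwn1 crwn2 (edgeR p = 0.00130), and it overlaps another annotated gene. AT4G19530 is a TIR receptor whose expression in tobacco is described as inducing cell death, and it was at -0.85 in the authors' deposited table for crwn1 crwn2 (edgeR p = 6.77e-06, Cuffdiff -0.80). The uniform direction of the TIR genes therefore holds for the 21 found by the rule and not for every TIR receptor listed. Neither the descriptions nor the annotation brought in ADR1-L1, a helper receptor that was listed as higher for crwn1 crwn2 and is given below. No usable description stood in 99 rows of the crwn1 crwn2 table and 60 rows of the pwo1 table, and 0 of these matched the rule by the TAIR10.1 text.

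In pwo1, 4 of the 5 listed genes were higher than in Col-0 and 1 was lower. Of all 1239 genes listed for pwo1, 42.5% were higher and 57.5% were lower. By the TAIR10.1 text, 3 of the 189 family genes (1.59%) were listed for pwo1, against 3.26% of all annotated nuclear genes, 1.38% as higher and 1.88% as lower. A change of at least 2-fold was listed for 2 of the 5 genes, against 34.7% of all genes listed for pwo1. PP2-A5, a phloem protein that joins a TIR domain to a lectin, had the largest rise, 2.196 in the authors' deposited table for pwo1 (edgeR p = 2.24e-07, Cuffdiff 2.10). RLP18 was at -2.60 in the authors' deposited table for pwo1 (edgeR p = 7.13e-17, Cuffdiff -2.31). It is annotated as a transcribed pseudogene of a receptor-like protein, matched the rule by the words disease resistance protein and overlaps another annotated gene. The next gene in chromosome order, AT2G15042, was also listed for pwo1, at -2.67 in the authors' deposited table. Whether the falls of RLP18 and AT2G15042 are separate was not tested. Neither PP2-A5 nor RLP18 was listed for crwn1 crwn2.

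The 3 genes listed in both tables were higher in both mutants. Both comparisons use the same Col-0 samples, so the pairs of values are not independent, and the difference between the mutants was not tested. AT1G17600 was at 1.47 in the authors' deposited table for crwn1 crwn2 and 0.89 in that for pwo1 (edgeR p = 4.45e-04). ADR1 was at 1.12 in the authors' deposited table for crwn1 crwn2 and 0.66 in that for pwo1 (edgeR p = 4.00e-04). AT4G09420 was at 1.02 in the authors' deposited table for crwn1 crwn2 and 0.78 in that for pwo1 (edgeR p = 0.00332). The adjusted upper bound for AT4G09420 in pwo1 was 0.105, so it is not shown to pass 0.05.

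Listed genes that lay side by side were AT1G17600 with CHS1 and AT5G41740 with AT5G41750, both pairs on consecutive locus identifiers and 4 genes in all. AT1G17600 and CHS1, on opposite strands of chromosome 1, overlap each other in the TAIR10.1 annotation. The TruSeq v2 kit named in the labels does not mark strand, so reads from their overlap cannot be assigned to either gene, and their rises in crwn1 crwn2 are uncertain as separate values. The next gene of that locus, AT1G17615, is also a receptor of the family and was not listed for either mutant. AT5G41740 and AT5G41750 are on the same strand of chromosome 5, and their coding sequences are 89.3% identical over 3176 bases. They differed in size, with 0.53 for AT5G41740 and 1.12 for AT5G41750 in the authors' deposited table for crwn1 crwn2, and the treatment of reads that map to both genes is not stated by the sources used here.

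Among the 10 genes on either side of each of the 28, 11 had a relative of the family, and 20 distinct relatives in these windows were outside the 28 genes. Of these 20, 0 were listed for crwn1 crwn2 in either direction, beside 5.10% of all annotated nuclear genes. Listed genes whose descriptions match the rule are already among the 28. Only listed relatives that the descriptions missed could have counted, so the 0 was nearly fixed in advance and says nothing about the relatives. At the RPP5 and SNC1 locus of chromosome 4, the array in which the autoimmune snc1 mutation lies, 1 of 10 family genes was listed for crwn1 crwn2. That count is near the 13.2% of the 189 family genes and the 5.10% of all annotated nuclear genes. It was AT4G16960, at 0.79 in the authors' deposited table for crwn1 crwn2 (edgeR p = 6.02e-04), while SNC1, RPP4 and RPP5 were not listed. The coding sequence of AT4G16960 is 95.1% identical to that of AT4G16940 over 96.3% of its length, and the gene overlaps another, so its value is uncertain. In all, 7 of the 28 genes overlap another annotated gene.

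**Figure D4:**
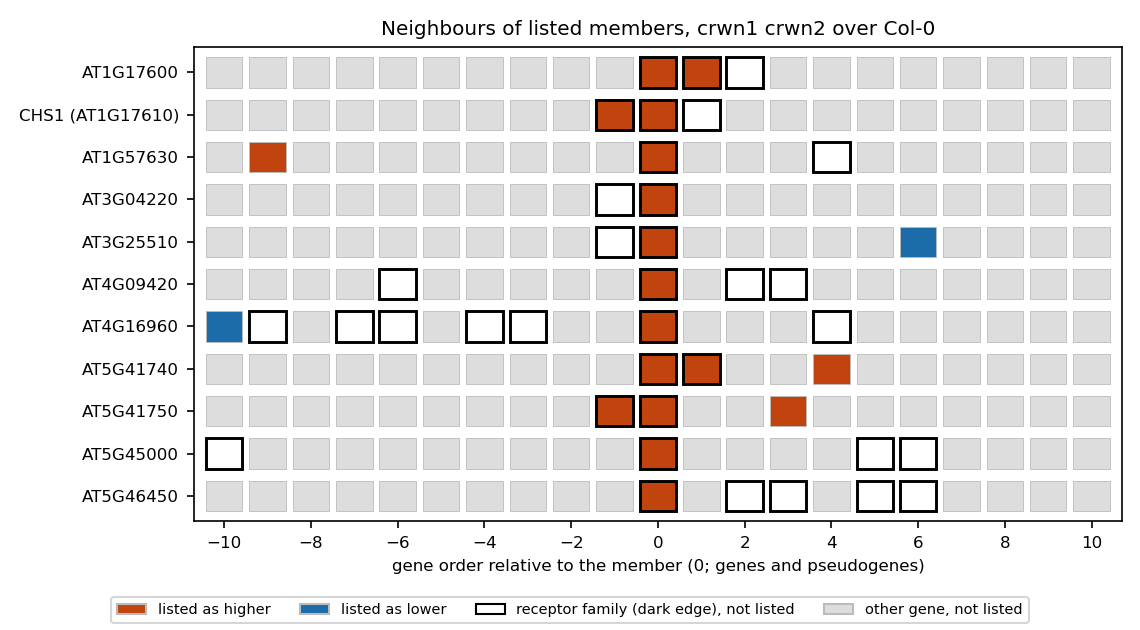
Genes in chromosome order within 10 places of each of the 11 receptor genes that have a relative of the family nearby (each row centred on the member at 0). Red and blue boxes are genes listed as higher and lower in crwn1 crwn2 over Col-0, dark edges mark family genes and white boxes are family genes that were not listed; the red family boxes beside a member are the AT1G17600 with CHS1 and AT5G41740 with AT5G41750 pairs.

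Of the 26 genes with a match to another coding sequence, 3 pairs within this set were each other's closest relative in the genome. Closest relatives were sought only for genes found by the rule. Pairs with a gene outside it, such as AT4G16960 with AT4G16940, were not tested in reverse. AT4G19050 and AT5G45510, 65.8% identical over 1395 aligned bases, which are 38.7% and 38.0% of their coding sequences, had opposite signs in crwn1 crwn2, -1.29 for AT4G19050 and 0.69 for AT5G45510 in the authors' deposited table. AT2G32140 and PP2-A5, 76.5% identical over 647 aligned bases, were each listed for 1 mutant, AT2G32140 at 1.90 in the authors' deposited table for crwn1 crwn2 and PP2-A5 at 2.196 in that for pwo1. The remaining pair was AT5G41740 and AT5G41750, given above.

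The 300 bases before the annotated start of AT1G57630, which had the largest rise, and of the first 2 of these pairs are shown to compare their regulatory sequence, since WRKY factors of immune transcription bind the W-box. They were read from the TAIR10.1 genome by locus identifier in its own RefSeq annotation, on the strand of each gene, and none overlaps another annotated gene. AT1G57630 has chr1:21345145-21345444, plus strand. AT2G32140 has chr2:13657370-13657669, minus strand, and PP2-A5 has chr1:24292072-24292371, plus strand. AT4G19050 has chr4:10444122-10444421, minus strand, and AT5G45510 has chr5:18444307-18444606, plus strand. Capitals mark the W-box core TTGAC on either strand (GTCAA on the other).
AT1G57630: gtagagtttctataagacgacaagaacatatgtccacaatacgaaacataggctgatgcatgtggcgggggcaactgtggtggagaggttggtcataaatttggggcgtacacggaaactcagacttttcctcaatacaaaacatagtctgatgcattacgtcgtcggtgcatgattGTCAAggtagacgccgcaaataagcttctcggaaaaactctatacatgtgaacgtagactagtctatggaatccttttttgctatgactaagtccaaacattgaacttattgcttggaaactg
AT2G32140: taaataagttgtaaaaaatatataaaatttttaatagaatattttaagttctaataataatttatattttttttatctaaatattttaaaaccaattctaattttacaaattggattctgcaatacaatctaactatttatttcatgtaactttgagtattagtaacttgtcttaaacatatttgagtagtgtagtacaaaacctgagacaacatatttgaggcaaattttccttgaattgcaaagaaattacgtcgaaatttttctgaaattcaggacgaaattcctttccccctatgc
PP2-A5: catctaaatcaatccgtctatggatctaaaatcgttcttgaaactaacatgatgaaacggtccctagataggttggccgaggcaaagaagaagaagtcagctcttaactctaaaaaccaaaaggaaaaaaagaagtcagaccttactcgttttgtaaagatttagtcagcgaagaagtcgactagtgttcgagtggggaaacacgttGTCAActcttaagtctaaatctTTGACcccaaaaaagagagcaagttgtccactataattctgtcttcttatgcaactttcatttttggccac
AT4G19050: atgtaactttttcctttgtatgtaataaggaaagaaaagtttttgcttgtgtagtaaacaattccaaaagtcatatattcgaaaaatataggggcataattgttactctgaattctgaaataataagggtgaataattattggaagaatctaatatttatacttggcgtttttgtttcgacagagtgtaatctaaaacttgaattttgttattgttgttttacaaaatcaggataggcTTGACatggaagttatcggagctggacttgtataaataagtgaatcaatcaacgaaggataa
AT5G45510: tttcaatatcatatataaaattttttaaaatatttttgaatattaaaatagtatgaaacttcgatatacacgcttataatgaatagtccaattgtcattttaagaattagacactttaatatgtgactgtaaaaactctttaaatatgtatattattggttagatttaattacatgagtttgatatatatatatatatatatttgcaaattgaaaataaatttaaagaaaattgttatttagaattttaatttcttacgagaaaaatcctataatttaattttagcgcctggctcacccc

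The core occurred in 1 place before AT1G57630 and AT4G19050, in 2 places before PP2-A5 and in 0 places before AT2G32140 and AT5G45510. The window of AT4G19050, which fell, thus holds it and that of its relative AT5G45510, which rose, does not. Of the 25 genes higher in crwn1 crwn2, 15 (60.0%) held the core, against 50.4% of the 27443 protein-coding genes with a full window and 59.9% of the 187 such family genes. The extended forms TTGACC and TTGACT, which contain the core, were found before 16.0% and 32.0% of the 25 genes, against 14.0% and 21.9% of all protein-coding genes and 12.8% and 36.4% of the family. The core TGACG of TGA factors, which overlaps the W-box core where both occur as TTGACG, was found before 5 of the 25 genes and 21.3% of all protein-coding genes. Each share of the 25 genes lay near that of its own family or of all genes.

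Signalling partners of the receptors were listed in crwn1 crwn2 in the upward direction. Of 11 helper receptors and EDS1-family genes, 6 were higher, 0 were lower and 5 were not listed. The 6 had a median of 1.21 in the authors' deposited table. Of all annotated nuclear genes, 2.88% were listed as higher and 2.22% as lower. The list was chosen with earlier results of these data known, so setting it beside these shares is no test. ADR1, among the 6, is also one of the genes found by the description rule. EDS1, which joins PAD4 or SAG101 in complexes that TIR products activate, was at 1.29 in the authors' deposited table (edgeR p = 5.39e-14), its neighbouring relative AT3G48080 at 1.52 and PAD4 at 1.52 (edgeR p = 4.87e-11). SAG101 was at 0.78 in the authors' deposited table (edgeR p = 3.76e-05). Among the helpers, ADR1-L1 was at 0.54 in the authors' deposited table (edgeR p = 0.00337), with an adjusted upper bound of 0.0730, beside ADR1 at 1.12. ADR1-L2, the NRG1 helper genes AT5G66890, AT5G66900 and AT5G66910, and NDR1 were not listed. In pwo1 ADR1 was the 1 gene of these 11 listed, against 3.26% of all annotated nuclear genes listed for pwo1. ADR1-L1 and AT3G48080 overlap other annotated genes. The sequences of EDS1 and AT3G48080 were not compared, and the treatment of reads that map to both is not stated. Their rises may therefore not be separate.

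Of 16 guarded proteins, chaperones and regulators of receptor level, 2 were higher in crwn1 crwn2, 0 were lower and 14 were not listed. Of all annotated nuclear genes 5.10% were listed for crwn1 crwn2, and the difference from the count of 2 was not tested. In pwo1 0 of the 16 were listed, against 3.26% of all annotated nuclear genes. HSP90.1, a chaperone that folds receptors with SGT1 and RAR1, was at 1.26 in the authors' deposited table for crwn1 crwn2 (edgeR p = 2.83e-06). SGT1A was at 0.47 in the authors' deposited table for crwn1 crwn2 (edgeR p = 0.00574), with an adjusted upper bound of 0.113. RIN4, PBS1, RAR1, SGT1B, the F-box gene CPR1 that limits SNC1 levels, and the repressors SRFR1 and BON1 were not listed. Of 33 receptors known from genetic studies, 4 were listed as higher in crwn1 crwn2, namely AT1G17600, CHS1, AT1G50180 and RPM1, and 29 were not listed. That count is near the 12.2% of the 189 family genes listed as higher, beside 2.88% of all annotated nuclear genes. AT1G17600 and CHS1 overlap each other. This list and that of the 16 were chosen with earlier results of these data known. The receptors of the 33 that were not listed included the CC receptors RPS2, RPP8, RPP13 and ZAR1 and the TIR receptors RPS4, RRS1, RPS6 and LAZ5. In pwo1 AT1G17600 was the 1 receptor of the 33 listed, near the 3.26% of all annotated nuclear genes listed for pwo1.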

How the data were processed

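Each mutant had 1 deposited table, which holds the authors' comparison with Col-0. Per the file headers, its columns are the authors' log2 fold changes by edgeR and by Cuffdiff and a deposited p-value for each tool. The authors used TopHat2 2.0.12, HTSeq 0.6.1, edgeR 3.3 and Cuffdiff 2.2.1 with build TAIR10, per the submitters' processing notes. What each tool did, how genes came to be listed, which genes were tested and whether strand was used are not given here. The depth is unknown, so no interval was computed. The largest p-values that the authors deposited were 0.00585 by edgeR and 0.0074 by Cuffdiff for crwn1 crwn2, and 0.00386 and 0.00455 for pwo1.

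A gene counted as higher or lower when its table lists it. The members and lists were chosen with earlier results of these data known. The genes to name were those listed in both tables, the 8 largest changes per table and direction, listed genes of the receptor and partner lists, and genes in clusters of at least 3; other named genes were chosen after their values were seen. Members within 20 locus numbers were joined as neighbours. The upper bound on adjusted p takes the authors' listed edgeR p-values over the 37899 nuclear genes of TAIR10.1, and was tested on simulated data. Names, coding lengths and 300-base windows came from TAIR10.1 by locus identifier, which held all 28 members. Closest relatives of the members were found with blastn 2.17.0 on the longest coding sequences. Python 3.11.15 and pandas 2.3.3 were used.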

Additional observations from a re-analysis of the deposited data

How the results depend on the processing

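Cuffdiff in place of edgeR kept the sign of all 31 member values, with a largest difference of 0.34 on the log2 scale, and moved no median by more than the spread among members. With at least a 2-fold change required, 15 genes were higher in crwn1 crwn2, 12 of them TIR, and in pwo1 1 gene, also TIR. With p under 0.001 in both of the authors' tools, 0 genes were lower in crwn1 crwn2, and 2 were higher in pwo1, 1 of them TIR. With NB-containing receptors only, 0 genes were lower in pwo1. The rule on the TAIR10.1 annotation, chosen after seeing the data, gave 2 lower genes in crwn1 crwn2, 1 of them TIR, and for pwo1 0 lower genes and 1 higher CC gene, ADR1. These counts follow from fewer or other genes entering each rule. The other planned counts, with the adjusted bound under 0.05 or another step between neighbours, stayed within 1.5 times. No paired analysis was possible because the tables hold comparisons with no values per replicate, and for the same reason no replicate was left out. Not being listed does not show that a receptor was unchanged, and the depth that limits detection is unknown.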
